A study of Mus musculus with 46 samples.

Results

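Max and the 5 genes for the repressors that pair with it, Mnt, Mxd1, Mxi1, Mxd3 and Mxd4, were followed in cultured mouse thyroid tumour cells that carry or lack a working Max gene. The 6 genes were chosen by name, as MAX together with every MNT and MXD family member. All 6 were found in both deposited tables, among 14360 genes in the table of the cell lines and 14056 in that of the addback experiment. None was lost to the filter on low values, and the smallest number of reads behind any value was 146, for Mxd1.

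MAX is a small basic helix-loop-helix leucine zipper protein that can bind DNA with many partners. With MYC proteins it activates genes at the E-box CACGTG, whereas with MNT or an MXD protein it recruits the SIN3 and histone deacetylase corepressor to the same kind of site. The MXD and MNT proteins bind these sites as partners of MAX, although some of them, MNT among them, can also pair with MLX. MNT is the broadly expressed repressor, MXD1, MXI1 and MXD4 are known for appearing as cells stop dividing and differentiate, and MXD3 is known from dividing cells. Inherited and acquired inactivation of MAX is found in neuroendocrine tumours such as phaeochromocytoma, and calcitonin-producing C cells are the neuroendocrine cells of the thyroid.

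Values came from 14 RNA sequencing libraries of 46 in the series; 32 tumour libraries were not analysed here. RP denotes 4 lines that are Rb/p53 mutant and RPM denotes 4 lines that are Rb/p53/Max mutant, so both groups share the Rb and p53 lesions. The conditional alleles had been recombined in the mice by a tamoxifen-inducible Cre active in neuroendocrine cells. In a separate experiment an RPM line received an empty vector (3 libraries) or a Max expressing vector, called Max addback (3 libraries). By its library names that line is the one in RPM replicate 2, so the addback results describe 1 line. The sources used here give no ages, vector promoters or separate cultures for the vector libraries, and p-values therefore measure the spread between these samples only.

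Libraries held 6738614 to 8498396 reads over the listed genes, and 3 reads correspond to 0.353 to 0.458 CPM (read counts scaled to library size by the authors), a limit that covers counting error only. The neuroendocrine label was checked against 7 C cell markers (Calca, Chga, Chgb, Ret, Scg2, Syp and Nkx2-1). All 7 were listed in both tables, and their summed level was 3761 to 5843 CPM in RP lines, 3138 to 21326 CPM in RPM lines, 4818 to 5080 CPM with empty vector and 8269 to 9725 CPM with addback. Of 6 follicular cell genes, the table of the lines listed 1 and that of the addback experiment 3, with a summed level of at most 8.88 CPM, and Tg, Tshr and Foxe1 were in neither table. Of 5 fibroblast genes, Col1a1 and Dcn were listed, together at 6.38 to 144 CPM in RP lines, 3.32 to 45.7 CPM in RPM lines, 28.9 to 39.2 CPM with empty vector and 5.34 to 7.10 CPM with addback. In addback replicates 1, 2 and 3 the Y-linked gene Ddx3y was at 0 CPM, whereas it was at 157 to 177 CPM with empty vector and at 125 CPM in RPM replicate 2, so the effect of Max and the identity of the transduced cells cannot be told apart. Addback replicate 3 differed from its 2 partners far more than these did from each other (a chi-square over genes, per degree of freedom, of 16.3 and 13.8 against 1.88). RPM replicate 1 shares its animal identifier with tumours whose genotype is given as Rb/p53 mutant. The title of a pituitary tumour among them reads RPM instead. The change of each member in the lines is therefore also given without RPM replicate 1.

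The start-site regions of the members were searched for E-boxes, since MAX and its partners bind them. RefSeq gives 8 start sites for the 6 genes, 3 of them for Mxi1, each with 250 bases before and 50 after the start (assembly GRCm38.p6). The letters CACGTG, which read the same on both strands, occurred once each in the windows of Max, Mnt and Mxd4 and in none of the windows of Mxd1, Mxd3 and Mxi1. CACGCG, searched on both strands, occurred in none of the 8. Of 32851 start-site windows of the same length in the mouse table, 7.15% held CACGTG and 9.27% held CACGCG. The 3 windows that held it are shown 5′ to 3′ on the gene's own strand, with CACGTG in capitals: Max at chr12:76962199-76962498 (minus strand), Mnt at chr11:74830674-74830973 (plus strand) and Mxd4 at chr5:34187661-34187960 (minus strand).
Max: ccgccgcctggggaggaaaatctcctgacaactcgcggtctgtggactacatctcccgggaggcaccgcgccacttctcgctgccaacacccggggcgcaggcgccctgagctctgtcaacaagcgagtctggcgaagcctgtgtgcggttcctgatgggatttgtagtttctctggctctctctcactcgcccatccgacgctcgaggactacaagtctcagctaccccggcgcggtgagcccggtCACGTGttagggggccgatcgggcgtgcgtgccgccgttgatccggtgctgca
Mnt: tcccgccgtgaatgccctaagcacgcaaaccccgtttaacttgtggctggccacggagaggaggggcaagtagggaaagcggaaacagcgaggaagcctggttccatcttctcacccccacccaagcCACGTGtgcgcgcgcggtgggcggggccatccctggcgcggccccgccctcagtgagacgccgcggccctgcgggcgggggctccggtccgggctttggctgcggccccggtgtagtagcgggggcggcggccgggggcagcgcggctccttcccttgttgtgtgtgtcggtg
Mxd4: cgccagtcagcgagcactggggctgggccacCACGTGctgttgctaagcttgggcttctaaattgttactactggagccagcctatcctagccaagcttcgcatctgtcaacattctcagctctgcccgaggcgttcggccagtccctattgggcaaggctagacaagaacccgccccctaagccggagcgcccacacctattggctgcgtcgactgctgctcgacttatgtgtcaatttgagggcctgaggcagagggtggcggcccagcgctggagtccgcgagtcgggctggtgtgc
Counted from the RefSeq start, the E-box lay at bases -3 to 2 in Max, at -123 to -118 in Mnt and at -219 to -214 in Mxd4. The GENCODE gene of Max begins downstream of that RefSeq start, at base 76962201, and for Max alone of the 6 members the end of the window was not found in a GENCODE transcript. A match describes these letters only; binding was not measured in the files used here.

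Max itself was read in all 14 libraries, at higher values in RPM than in RP lines, a difference that did not pass limma. Max (ENSMUSG00000059436.13, chromosome 12, 76937269 to 76962201, minus strand, GRCm38) stood at 65.2, 44.7, 50.8 and 57.5 CPM in the RP lines (replicates 1 to 4). The RPM lines, in the same order, had 80.9, 103, 68.9 and 100.5 CPM. Every RPM line lay above every RP line. The means were 54.6 ± 8.8 and 88.2 ± 16.2 CPM (SD, n = 4 each). On the log2(CPM + 1) scale the change was 0.68 (SE 0.17, 95% interval 0.28 to 1.08). Permuting the 8 labels in full gave an exact two-sided p of 0.0286, the floor for 4 against 4 libraries, but limma over all genes gave an adjusted p = 0.161. Without RPM replicate 1 the log2 change of Max was 0.71 (limma adjusted p = 0.109). Reads summed along the gene cannot reveal the loss of an exon, so these values check nothing about the mutant label. With empty vector Max was at 86.3, 83.1 and 96.0 CPM, and with addback at 251, 250 and 220 CPM. Max was higher with addback by 1.43 on the log2 scale (SE 0.09, limma adjusted p = 5.75e-07). Reads of the vector and of the cell's own gene cannot be told apart.

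Mnt rose in the RPM lines and fell with addback. By replicate, Mnt (ENSMUSG00000000282.12, chromosome 11, 74830920 to 74845725, plus strand) was at 59.7, 56.9, 54.5 and 52.3 CPM in the RP lines and at 119, 96.4, 125 and 108 CPM in the RPM lines. The groups did not overlap: the lowest RPM line, replicate 2, lay well above the highest RP line. The means were 55.8 ± 3.17 and 112 ± 12.8 CPM (SD, n = 4 each). The log2 change was 0.99 (SE 0.12, 95% interval 0.72 to 1.26, limma adjusted p = 0.0325), and Mnt ranked 8 of 14360 genes by its limma p. By exact permutation p was 0.0286 (two-sided). In such bulk samples, fewer cells that make a transcript and less of it per cell cannot be told apart.
In the addback experiment Mnt was at 90.6, 78.7 and 97.6 CPM with empty vector and at 57.3, 56.3 and 57.4 CPM with Max. The 3 addback libraries, with a coefficient of variation of 1.12%, all lay below the empty vector libraries. Its mean was 89.0 ± 9.53 CPM with empty vector and 57.0 ± 0.637 CPM with addback (SD, n = 3 each). The log2 change was -0.63 (SE 0.09, 95% interval -0.83 to -0.42, limma adjusted p = 0.000271). By exact two-sided permutation p was 0.1, below which 3 against 3 libraries cannot go. The level with addback was near that of the RP lines, though the tables were normalised separately and the levels were not tested against each other.
The Mnt call in the lines depended on which libraries entered. Without RPM replicate 1 limma gave 0.96 and an adjusted p = 0.0216, and without RPM replicate 2 an adjusted p = 0.0462. Without any 1 of RP replicates 1, 2, 3 and 4 or RPM replicates 3 and 4 the adjusted p was 0.0782, 0.0569, 0.107, 0.0645, 0.0945 and 0.106, in that order, with the direction kept each time. The count test edgeR quasi-likelihood gave an adjusted p = 0.0563, whereas the authors' deposited table called Mnt higher in RPM lines (log2 change 1.01, FDR 0.0420). The call in the addback experiment held without each of its 6 libraries in turn.

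Mxi1, the repressor first known as MAX interactor 1, had the same pattern of values, but its change in the lines did not pass limma. Mxi1 (ENSMUSG00000025025.14, chromosome 19, 53310518 to 53375810, plus strand) was at 98.1, 76.5, 117 and 87.5 CPM in the RP lines. It was at 195, 145, 152 and 160.4 CPM in the RPM lines, again by replicate. The groups did not overlap (exact two-sided permutation p = 0.0286). The log2 change was 0.78 (SE 0.16, 95% interval 0.43 to 1.14, limma adjusted p = 0.104), and DESeq2 on recovered reads called it (0.78, adjusted p = 0.00173). Without RPM replicate 1 the change was 0.70 (limma adjusted p = 0.0730).
In the addback experiment Mxi1 was at 179, 171 and 191 CPM with empty vector and at 105, 119 and 144 CPM with Max. All addback libraries lay below all empty vector libraries, replicate 3 nearest to them. Mxi1 fell by 0.56 on the log2 scale (SE 0.11, limma adjusted p = 0.00196). In the authors' deposited table the same change was -0.56 with an FDR of 8.73e-06, and it carried no call.

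Mxd4, which encodes another SIN3-recruiting MXD protein, passed the test in neither comparison. Mxd4 (ENSMUSG00000037235.13, chromosome 5, 34173883 to 34187720, minus strand) was at 68.5, 104.5, 98.0 and 79.1 CPM in the RP lines. The RPM lines had 104.1, 154, 125 and 197 CPM of it. The groups overlapped narrowly, RP replicate 2 lying just above RPM replicate 1. The log2 change was 0.70 (SE 0.22, 95% interval 0.20 to 1.20, limma adjusted p = 0.212, exact two-sided permutation p = 0.0571). Without RPM replicate 1 the change was 0.84 (limma adjusted p = 0.0899).
With empty vector Mxd4 was at 133, 133 and 126 CPM, and with addback at 127, 121 and 110 CPM. The ranges overlapped, and the log2 change was -0.13 (SE 0.08, 95% interval -0.31 to 0.05, limma adjusted p = 0.193). It was -0.07 without addback replicate 3 and -0.05 without the TMM factor.

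Mxd3, the family member known from dividing cells, varied most among the lines of a group. Mxd3 (ENSMUSG00000021485.14, chromosome 13, 55325168 to 55329823, minus strand) was at 26.2, 21.9, 27.7 and 54.4 CPM in the RP lines. In the RPM lines its level was 62.0, 84.5, 32.1 and 49.9 CPM. RP replicate 4 reached into the RPM range and RPM replicate 3 lay close to the other RP lines. The coefficient of variation was 45.4% in RP and 38.5% in RPM lines, against 5.68% and 11.4% for Mnt. The log2 change was 0.80 (SE 0.35, 95% interval -0.01 to 1.60, limma adjusted p = 0.317). Without RPM replicate 1 the change was 0.73 (limma adjusted p = 0.329).
With empty vector Mxd3 was at 88.0, 82.3 and 89.5 CPM, and with addback at 70.7, 67.4 and 87.8 CPM. Addback replicates 1 and 2 lay below the empty vector libraries and replicate 3 among them. The log2 change was -0.21 (SE 0.10, 95% interval -0.44 to 0.02, limma adjusted p = 0.119), and without addback replicate 3 it was -0.32 with an adjusted p = 0.000228. It was -0.13 without addback replicate 2 and also without the TMM factor.

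Mxd1, which encodes the founding MXD protein, was the member with a negative log2 change in the lines, and it passed the test in neither comparison. Mxd1 (ENSMUSG00000001156.9, chromosome 6, 86647042 to 86669161, minus strand) was at 29.0, 30.8, 37.4 and 30.7 CPM in the RP lines. Its RPM values were 18.6, 27.4, 33.1 and 26.3 CPM. The groups overlapped, and the log2 change was -0.29 (SE 0.20, 95% interval -0.75 to 0.17, limma adjusted p = 0.498). Without RPM replicate 1 it was -0.14.
With empty vector Mxd1 was at 24.3, 29.1 and 30.1 CPM, and with addback at 31.9, 30.4 and 33.2 CPM. The groups were separated by a narrow gap, and the log2 change of 0.19 (SE 0.11, 95% interval -0.05 to 0.43, limma adjusted p = 0.157) did not pass the test. Without empty vector replicate 1 it was 0.10.

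**Figure D1:**
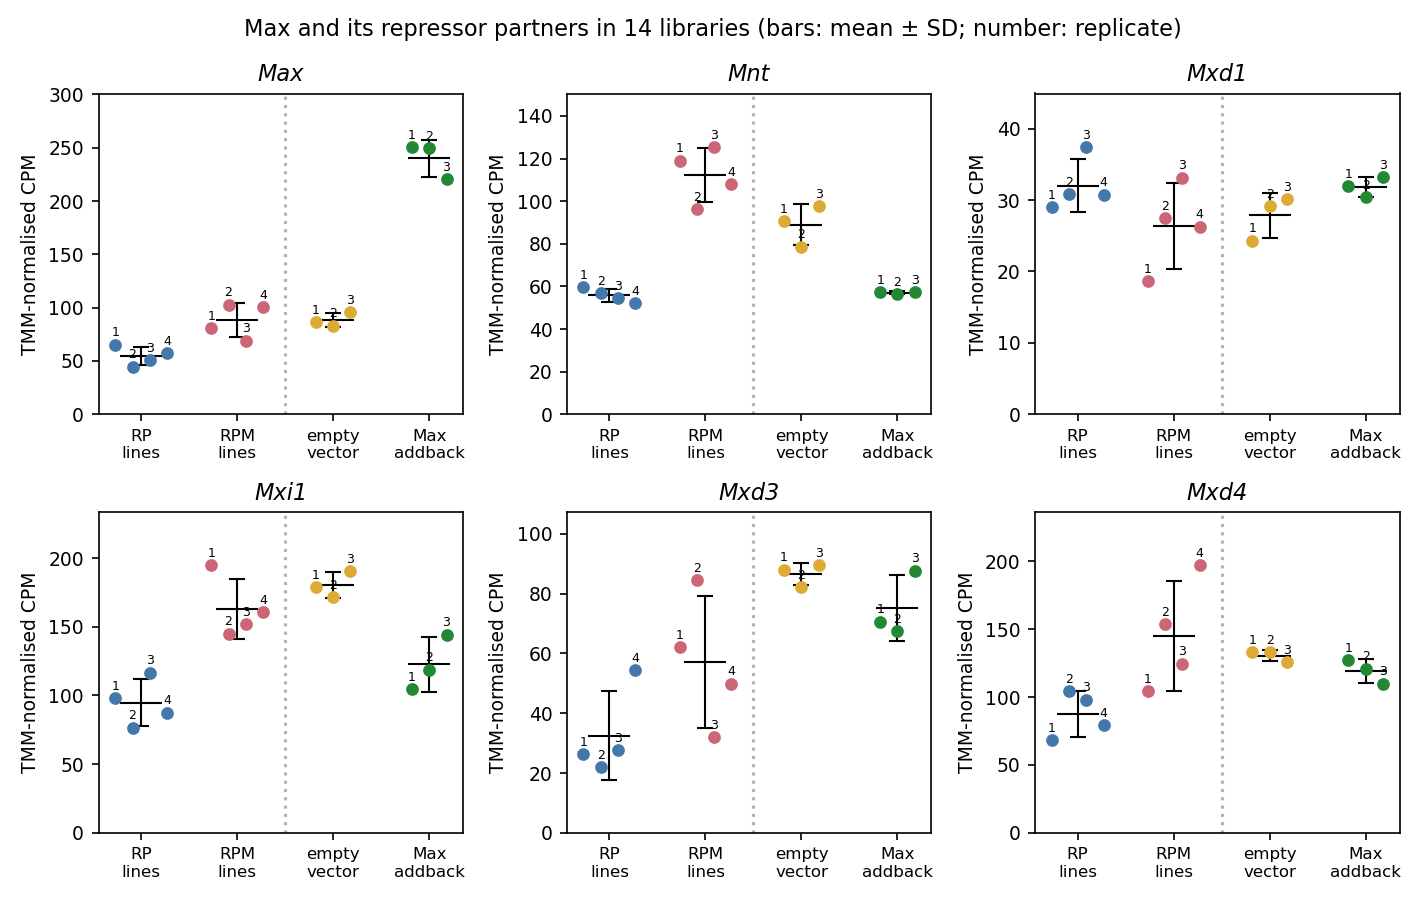
Level of each of the 6 genes in CPM (vertical axes from 0) in the 14 libraries, with groups along the horizontal axis. Points are libraries marked by replicate number and bars are the mean ± SD. The Mnt and Mxi1 points of the RPM lines lie above all those of the RP lines, and those with Max addback lie below all those with empty vector.

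Of the 6 members, 1 was called in the lines (Mnt), where 0.334% of all genes were called (0.209% higher in RPM lines), and 3 had groups that did not overlap (Max, Mnt and Mxi1, all higher in RPM lines), where 9.37% of all genes had (4.97% higher and 4.39% lower). With addback 3 were called (Max higher, Mnt and Mxi1 lower), against 53.2% of all genes (27.7% higher and 25.5% lower). For 4 members the groups did not overlap with addback (Max and Mxd1 higher, Mnt and Mxi1 lower), against 61.9% of all genes (31.7% higher and 30.2% lower). The share called with addback is therefore close to that among all genes. In the lines the 6 log2 changes ran from -0.29 to 0.99, beside a median of -0.01 over all genes.

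**Figure D2:**
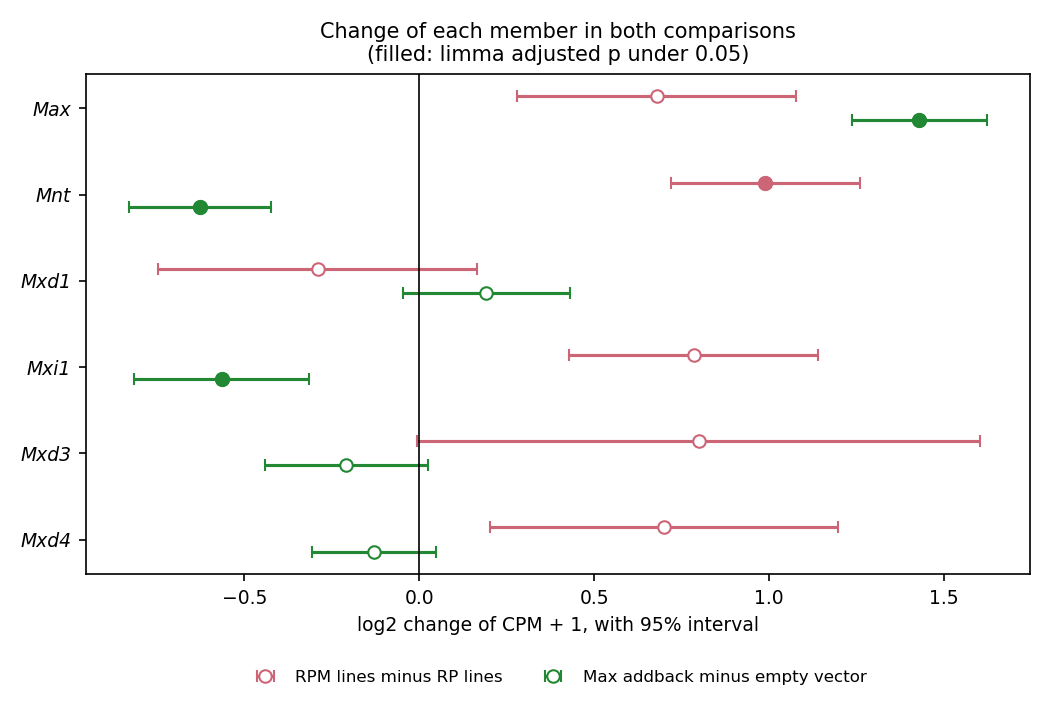
Change of each gene on the log2(CPM + 1) scale (horizontal axis) with its 95% interval, for RPM minus RP lines and for Max addback minus empty vector; filled points passed limma at an adjusted p under 0.05. For Mnt and Mxi1 the intervals of both comparisons lie on opposite sides of 0, whereas for Max both lie above 0.

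Whether a member's change in the lines and its change back with addback differed in size was tested directly, as the log2 change of RPM over RP minus that of empty vector over addback (limma with voom quality weights on recovered reads). This difference passed the test for 28.3% of the 13528 genes in both tables. It was 0.37 for Mnt (95% interval -0.02 to 0.76, limma adjusted p = 0.149) and 0.09 for Mxi1 (limma adjusted p = 0.757), and it did not pass for Mxd1 (-0.09) or Mxd3 (0.11). These values moved with the setting while staying short of the test: Mxi1 was at 0.21 with limma-trend and with edgeR and at 0.29 without addback replicate 1, and Mxd3 at 0.58 with limma-trend, 0.60 with edgeR and 0.62 without RP replicate 4. For Mxd4 it was 0.79 (SE 0.20, 95% interval 0.37 to 1.22, limma adjusted p = 0.00948), the change in the lines being the larger. That call was lost without RPM replicate 4, the line with most Mxd4 (0.46, adjusted p = 0.149), with limma-trend (0.56, adjusted p = 0.220) and with edgeR (0.58, adjusted p = 0.202). In these settings 1885, 1183 and 1338 of all shared genes passed, in that order, against 3835 in the main fit. For Max, which the vector supplies, the difference was 2.19 (limma adjusted p = 3.18e-06). The fit pooled the spread between separate lines with that between vector libraries of 1 line. Within a group, the chi-square per degree of freedom was 21.8 to 82.1 between lines and 1.81 to 16.3 between vector libraries. The p-values of this difference may therefore be too small for the spread between lines.

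Levels of different genes were compared per length, as RPKM (reads scaled to a fixed length per gene and to library size, as deposited). That length was 7.072 kb for Mxd1 and 2.369 kb for Mxd3. Unscaled, RP lines had a mean of 32.0 CPM of Mxd1 and 32.5 CPM of Mxd3. The orders and shares below therefore rest on these lengths, and which transcript forms were made was not examined. In RP lines Max was at 15.2 ± 2.45, Mxi1 at 13.9 ± 2.51, Mxd3 at 13.7 ± 6.24, Mnt at 12.1 ± 0.686 and Mxd4 at 10.3 ± 1.96 RPKM (SD, n = 4), each range overlapping that of the next. Mxd1, at 4.52 ± 0.526 RPKM, lay below all of them without overlap. Per length, Mxd1 was the lowest of the 5 repressors in each of the 14 libraries. In RPM lines the order was Max at 24.5 ± 4.50, Mnt at 24.3 ± 2.77, Mxd3 at 24.1 ± 9.29, Mxi1 at 23.9 ± 3.23, Mxd4 at 17.1 ± 4.75 and Mxd1 at 3.73 ± 0.844 RPKM (SD, n = 4), and again only Mxd1 stood clear of its neighbour.
With empty vector Mxd3 led at 36.6 ± 1.61 RPKM, followed by Mxi1 at 26.4 ± 1.42 and Max at 24.6 ± 1.87, whose ranges overlapped, then Mnt at 19.2 ± 2.06, Mxd4 at 15.4 ± 0.497 and Mxd1 at 3.94 ± 0.438 RPKM (SD, n = 3). With addback Max led at 66.8 ± 4.79, followed by Mxd3 at 31.8 ± 4.62, Mxi1 at 17.96 ± 2.95, Mxd4 at 14.1 ± 1.04, Mnt at 12.3 ± 0.138 and Mxd1 at 4.50 ± 0.196 RPKM (SD, n = 3), with no overlap between neighbours. RPKM scaled Max to 3.598 kb here too, and the length of the vector's Max transcript was not known. Max per length with addback, and ratios to it, may therefore not compare with the other groups.

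The 5 repressor transcripts summed to 49.4 to 60.8 RPKM in RP lines, 82.3 to 99.8 RPKM in RPM lines, 96.6 to 106 RPKM with empty vector and 76.6 to 88.3 RPKM with addback. The sums of the RP and RPM lines did not overlap, nor did those with and without addback. Relative to Max, the sum was 2.79 to 4.06 in RP lines, 3.40 to 4.30 in RPM lines, 3.97 to 4.25 in the empty vector libraries and 1.10 to 1.44 in the addback libraries. The ratio of RP and RPM lines overlapped, since both its parts were higher in RPM lines. With addback both parts lowered the ratio, as Max was much higher and the sum was lower. Mnt per Max was 0.707 to 0.989 in RP lines, 0.729 to 1.42 in RPM lines, 0.736 to 0.816 in the empty vector libraries and 0.175 to 0.203 in the addback libraries. The ratios to Max with addback carry the limit on the vector transcript's length given above.
As a share of the sum, Mxd1 made up 7.15 to 9.22% in RP lines and 2.76 to 5.69% in RPM lines. The Mnt share was 18.6 to 25.5% in RP lines and 20.9 to 33.0% in RPM lines, then 17.6 to 19.9% in the empty vector libraries and 14.1 to 16.1% in the addback libraries. Per length, Mxd3 was the most abundant repressor transcript in all 6 libraries of the addback experiment, at 35.7 to 42.0% of the sum. Shares of a sum are linked to each other, and no test was made on them.

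**Figure D3:**
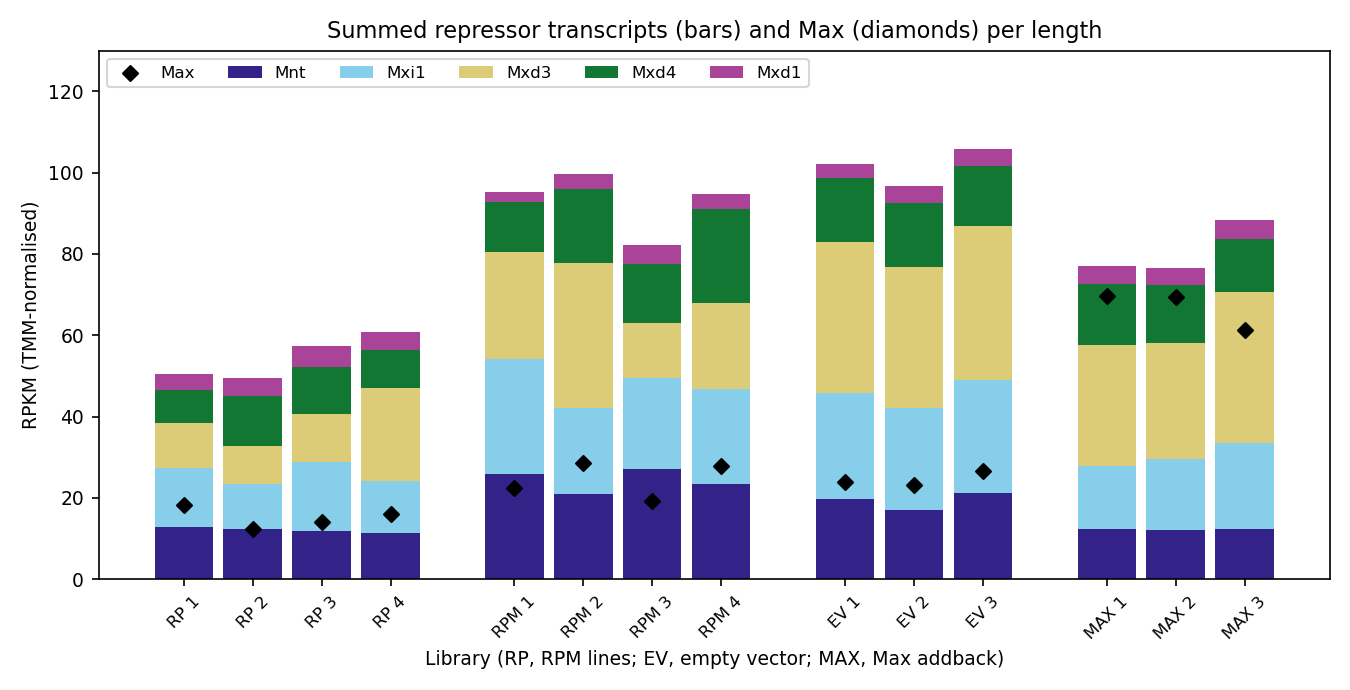
RPKM of the 5 repressor genes stacked per library (vertical axis from 0), with the level of Max marked for each, along the 14 libraries in their groups. The stack is taller in each RPM line than in each RP line, and with addback the Max mark approaches the top of the stack.

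The 4 RPM lines differed in which member led. RPM replicate 1 had most Mxi1 and least Mxd1, replicate 2 most Max and Mxd3, replicate 3 most Mnt and least Max and Mxd3, and replicate 4 most Mxd4. Across these 4 lines the order of Max was the reverse of that of Mnt: none of the 6 pairs of lines had both genes in the same order, against 3 of 6 pairs among RP lines. Max and Mxd4 were likewise in reverse order in the RP lines (0 of 6 pairs), against 4 of 6 pairs among RPM lines. With 4 lines this is a description of them. In all, 15 pairs of members were examined in this way.

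The genes whose log2 level followed each member most closely over the 8 lines were found among 10437 genes with a mean of at least 10 CPM. Mnt was followed by Rabggtb (Pearson r = 0.98), the rRNA processing factor gene Rrp12 (0.98) and the clock repressor gene Cry1 (0.98), with r of 0.66, 0.93 and 0.96 over the 6 libraries of the addback experiment. Max was followed by Fam210a (0.99) and the ribosome biogenesis genes Nsa2 and Mdn1 (0.97 each), with r of -0.94, -0.93 and -0.67 over the 6 libraries of the addback experiment. Mxi1 was followed by Cox15 (0.98), Trub1 (0.97) and Cyp4f16 (0.97), Mxd3 by Srp19 (0.98), Eif3m (0.97) and Riok1 (0.96), Mxd4 by Paqr9 (0.98), Pdcd4 (0.95) and Dnajc15 (0.95), and Mxd1 by Tpra1 (0.99), Cep19 (0.98) and Dchs2 (0.96). Over the 6 libraries of the addback experiment r was 0.78, 0.87 and -0.40 for those of Mxi1. For those of Mxd3 it was 0.56, 0.71 and -0.34, for Mxd4 0.74, 0.25 and 0.68, and for Mxd1 0.59, 0.70 and 0.55. These are the highest of many correlations over 8 points that fall into 2 groups, so they describe these libraries.

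The other genes of the MYC network were examined beside the members: Myc, Mycn and Mycl, the activating partners of MAX, Mga, a further repressor partner, and Mlx, Mlxip and Mlxipl, whose proteins form the parallel MLX branch. In the lines 0 of 7 passed limma, with 3 at an unadjusted p under 0.05, 0 called by edgeR and 1, higher, by DESeq2. Over all 14360 genes, limma called 48 (0.334%) and edgeR 3, so 0 calls in a short list is close to that share. Of all genes, 2284 were at an unadjusted p under 0.05, and DESeq2 called 352 higher and 305 lower. Mycl was at 175 to 408 CPM in RP lines, at 320 CPM in RPM replicate 1 and at 2.84 to 6.61 CPM in RPM replicates 2 to 4. In the authors' deposited table Mycl was called lower in RPM lines (log2 change -1.58, FDR 8.97e-06). Myc was at 2.65 to 5.61 CPM in RP lines and at 2.25 CPM in RPM replicate 3, and it fell short of the level of 3 reads in RPM replicates 1, 2 and 4. In the authors' deposited table Myc too was called lower in RPM lines (log2 change -2.50, FDR 0.0442). For Mycn the levels were 7.09 to 12.6 CPM in RP and 4.59 to 24.4 CPM in RPM lines.
With these levels, the repressor sum stood at 0.479 to 1.15 times the summed RPKM of Myc, Mycn and Mycl in RP lines, and at 1.18, 10.9, 19.0 and 35.1 times in RPM replicates 1 to 4. RPM replicate 1, with Mycl at 320 CPM, lay just above the RP lines. The bearing of its shared animal identifier on this was not tested. In RP lines Mycl made up 61.6 RPKM of a mean sum of 66.2 RPKM.
Mga was at 211 to 260 CPM in RP and 300 to 335 CPM in RPM lines, which did not overlap (log2 change 0.37, limma adjusted p = 0.195, exact permutation p = 0.0286). With addback 4 of the 6 listed network genes were called, 1 higher and 3 lower, where 53.2% of all genes were called (27.7% higher and 25.5% lower). Mga fell from 347 ± 3.18 to 214 ± 62.0 CPM (SD, n = 3 each; log2 change -0.74, limma adjusted p = 0.00714), Mlx fell by 0.35 and Mlxip by 0.38 on the log2 scale, and Mlxipl, the glucose-sensing MLX partner ChREBP, rose from 22.0 ± 2.06 to 51.4 ± 1.31 CPM (SD, n = 3 each; log2 change 1.19, limma adjusted p = 4.79e-06). Mycn and Mycl did not pass (log2 changes 0.13 and -0.03), and Myc was not listed. The median log2 change of the network genes was -0.10 in the lines and -0.19 with addback, beside -0.0052 and -0.0019 over all genes.

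The corepressor that MXD and MNT proteins recruit was followed through 22 listed genes. Of 24 symbols written down, Brms1 was not listed and Fam60a is an earlier symbol of Sinhcaf, already among them. In the lines 0 passed limma, with 3 at an unadjusted p under 0.05, 0 called by edgeR and 1, lower, by DESeq2. Among all 14360 genes, limma called 0.334% and edgeR 3 genes, 2284 were at an unadjusted p under 0.05 and DESeq2 called 305 lower. With addback 3 rose and 6 fell, with a median log2 change of -0.08, beside the 27.7% of all genes called higher and the 25.5% called lower. Sap30, a SIN3-associated subunit, fell from 76.7 ± 2.77 to 39.7 ± 8.06 CPM (SD, n = 3 each; log2 change -0.95, limma adjusted p = 0.000155). The other 3 called genes with the largest changes were the SIN3 complex gene Sinhcaf (-0.75), Ogt, the O-GlcNAc transferase that binds SIN3A (-0.41), and Sap18 (0.37).

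Genes that MYC and MNT or MXD proteins are known to share as E-box targets were given as a list of 18. In the lines 0 of 17 listed passed limma, with 6 at an unadjusted p under 0.05, 0 called by edgeR and 3, all higher, by DESeq2. Among all 14360 genes, limma called 0.334% and edgeR 3 genes, 2284 were at an unadjusted p under 0.05 and DESeq2 called 352 higher. Of the listed targets, 15 had a log2 change above 0, with a median of 0.36. With addback 14 of 18 fell and 1 rose, with a median log2 change of -0.60 beside -0.0019 over all genes, of which 25.5% were called lower and 27.7% higher. Srm, the spermidine synthase gene, fell from 167 ± 9.31 to 59.2 ± 6.26 CPM (SD, n = 3 each; log2 change -1.49, limma adjusted p = 6.86e-07). Nme2, a nucleoside diphosphate kinase gene, fell by 1.48 and Eno1, the glycolytic enolase gene, by 1.21 on the log2 scale. Tert, the telomerase reverse transcriptase gene and a textbook target of MXD1, was the gene of this list that rose, from 0.729 ± 0.143 to 8.06 ± 2.39 CPM (SD, n = 3 each; log2 change 2.36, limma adjusted p = 8.27e-06). In RPM replicate 2, the same line by name, Tert was at 10.97 CPM, above all 3 empty vector libraries, and in RPM lines it was at 10.97 to 39.9 CPM, the tables being normalised separately.
Of 18 proliferation genes, 0 passed limma in the lines, with 3 at an unadjusted p under 0.05, 0 called by edgeR and 1, higher, by DESeq2. The same background applies: of 14360 genes, limma called 0.334%, edgeR called 3, 2284 were at an unadjusted p under 0.05 and DESeq2 called 352 higher. With addback 9 fell and 3 rose (median log2 change -0.31), again beside 25.5% of all genes called lower and 27.7% called higher. Rrm2, the small subunit of ribonucleotide reductase, fell from 1117 ± 27.6 to 481 ± 17.1 CPM (SD, n = 3 each; log2 change -1.21, limma adjusted p = 1.16e-06), and Ccna2, Aurkb and Top2a fell by 0.55, 0.53 and 0.50 on the log2 scale. The summed level of the list was 4625 to 6956 CPM in RP lines, 5460 to 8262 CPM in RPM lines, 9274 to 9496 CPM with empty vector and 6373 to 7596 CPM with addback. Beside the fall of Mnt and Mxi1 with addback, 6 of 7 C cell markers rose, both listed fibroblast genes fell and 4 Y-linked genes fell. The part of cell identity in the changes of the members was not tested.

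**Figure D4:**
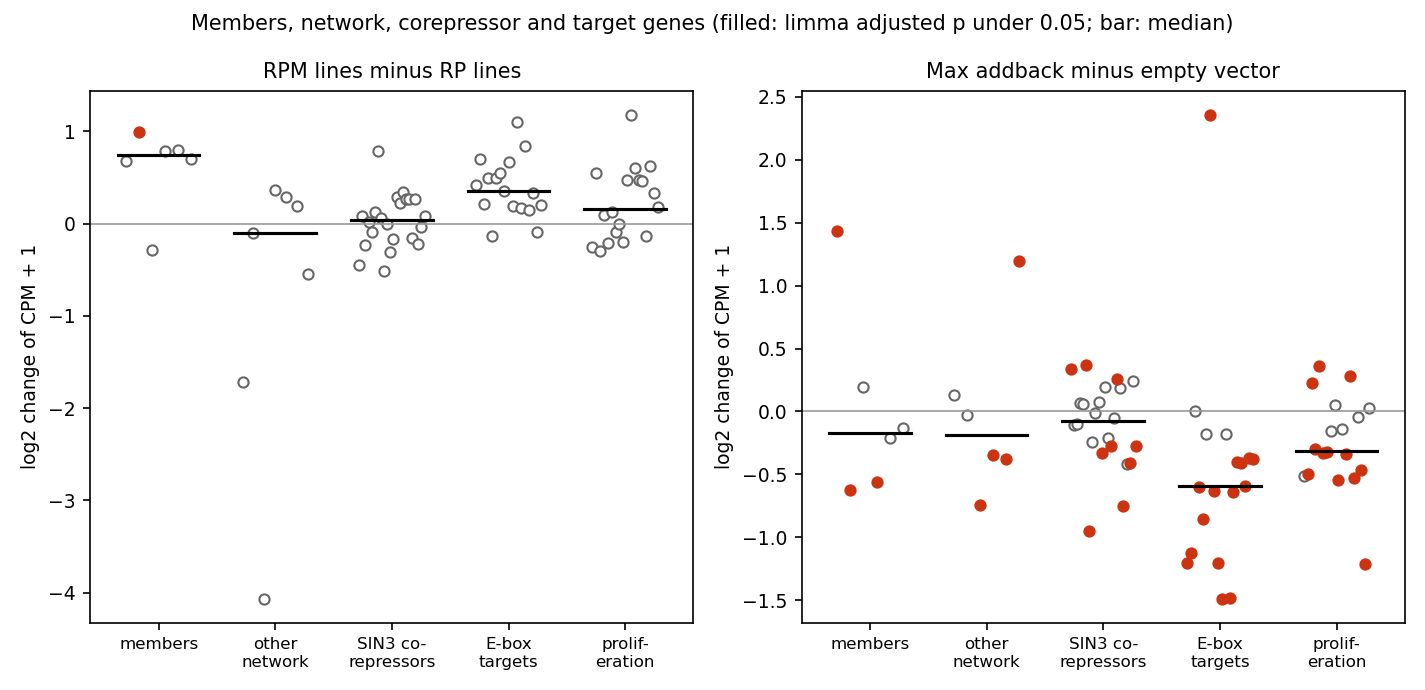
Log2 change of CPM + 1 (vertical axes) of the members, the other network genes, the SIN3 corepressor genes, the E-box targets and the proliferation genes in both comparisons. Each point is a gene, filled where limma gave an adjusted p under 0.05, and the bar is the median of the list. In the lines the filled point is Mnt, and with addback most E-box targets lie below 0.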

How the data were processed

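RNA sequencing values were analysed for 14 libraries of cultured thyroid cells, grouped by sample title: 4 RP, 4 RPM, 3 empty vector and 3 addback. The members and lists were chosen with earlier results of these data known. Per the submitters' processing notes, bcl2fastq 1.8.4, TopHat2 2.1.0, HTSeq 0.6.1 and edgeR were used on mm10. No source used here gives the strand setting, and a gene and its antisense partner cannot be separated. As deposited, per the file headers, the tables hold a CPM signal (TMM normalised) and RPKM per gene, log2 fold changes, p-values with FDR, and a score for their call of each gene. The 2 tables were normalised separately.

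CPM values were whole multiples of 1 read's value, which gave whole reads (within 0.01) for 100% of values, 6738614 to 8498396 per library. The planned test was edgeR for raw counts and limma-trend otherwise, so the main test was limma 3.58.1 (limma-trend) on log2(CPM + 1), a scale that understates changes of low genes, fitted on each table's own libraries over all genes, two-sided, Benjamini-Hochberg adjusted p under 0.05. On the recovered reads, edgeR 4.0.16 called 3 genes in the lines and 7430 with addback, and DESeq2 1.42.0 called 657 and 6705, against 48 and 7478 with limma. The difference between comparisons used voomWithQualityWeights. Fits were tested on simulated data. Named genes were the members, the network genes, up to 4 called genes of each other list by absolute log2 change, and the 3 genes most like each member. Alternatives were the pseudocount, low-value filter, normalisation, test, replicate block and leaving out each library. 1 planned cell type marker is not reported here. Coordinates came from GENCODE on GRCm38.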

Additional observations from a re-analysis of the deposited data

Results flagged for a closer look

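In 26 groups of 4 libraries (the members and the network genes in RP and RPM lines), 1 library standing far from the other 3 was looked for by Dixon's ratio; chance gives about 1 in 20 such groups. There were 3. Mycl in RPM replicate 1 was at 320 CPM, with 2.84 to 6.61 CPM in RPM replicates 2 to 4. Myc in RPM replicate 3 was at 2.25 CPM, with the other RPM lines below the level of 3 reads. Mlx in RP replicate 2 was at 61.2 CPM, against 44.6 to 46.5 CPM in the other RP lines. No member gene had such a library.

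The difference between the change in the lines and the change back with addback passed the test for 2 members. It passed for 28.3% of all 13528 shared genes. For Max the difference was 2.19 on the log2 scale (limma adjusted p = 3.18e-06), in an experiment where the vector supplies Max. For Mxd4 it was 0.79 (limma adjusted p = 0.00948), with Mxd4 higher in 3 of 4 RPM lines than in every RP line and 2 of 3 empty vector libraries above every addback library. The Mxd4 call was lost with limma-trend, with edgeR and without RPM replicate 4. There 1183, 1338 and 1885 of the shared genes passed, in that order, against 3835 in the main fit.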

How the results depend on the processing

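Directions of all 6 members in both comparisons were kept under every alternative run. In the lines the change of Mnt lost its call with edgeR's quasi-likelihood test (1.01, adjusted p = 0.0563), while its value stayed between 0.93 and 1.06 when 1 library was left out; DESeq2 called Max (0.69) and Mxi1 (0.78), which limma did not. Without 1 library at a time the change of Mxd3 with addback ran from -0.32 to -0.13, and it was called without addback replicate 3. The difference between comparisons lost its call for Mxd4 with limma-trend (0.56), with edgeR (0.58) and without RPM replicate 4, its leave-one-out values running from 0.46 to 0.88. That of Mxd1 ran from -0.21 to 0.01 and reversed without RP replicate 3 (0.0065), and that of Mxd3 ran from -0.038 to 0.62 and reversed without RP replicate 2 (-0.038) and without RPM replicate 2 (-0.01). Genes called in the lines numbered 48 with limma, 3 with edgeR and 657 with DESeq2, and 0 to 261 when 1 library was left out. Leaving out replicate 3 of either group, or RPM replicate 4, gave 0 calls, with 1469 (RP), 1805 and 1692 genes at an unadjusted p under 0.05, and 261 without RPM replicate 1. With addback the count ran from 6166 to 9035. For the difference between comparisons it was 3835 in the main fit, 1183 with limma-trend, 1338 with edgeR and 1885 without RPM replicate 4. The cause of these shifts was not tested.

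Replicate numbers are shared between groups, but same-numbered libraries did not deviate together in every pair (r of 0.40, 0.05, 0.01 and 0.13 in the lines and 0.03, 0.01 and 0.08 with addback), so the numbers were not read as pairing, and not every library correlated best with its own number. With the replicate block Mnt in the lines was at 0.99 (limma adjusted p = 0.126) and the count of called genes in the lines was 0, with 2463 at an unadjusted p under 0.05. Each member had 146 to 2004 reads per library, and counting error was not separated from the spread between lines.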
